A study of Arabidopsis thaliana with 36 samples.

Results

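Shoots of untreated *tpst* plants, a mutant of tyrosylprotein sulfotransferase (TPST), were compared with shoots of untreated Col-0 plants, the parental accession. The aim was to describe how the shoot transcriptomes of these lines differ when no peptide is supplied. The libraries were taken by genotype, tissue and treatment as the sample labels give them, and the comparison holds 3 *tpst* libraries and 3 Col-0 libraries, 6 of the 36 libraries of the series. Both genotypes were grown in liquid MS medium with sucrose, and shoots and roots were separated at day 11 after growth in long days. Each library was made from a pool of seedlings, and the 3 replicates of a group were independent biological replicates. The mutant was the T-DNA insertion line *tpst-1* in the Col-0 background, so the genotype was studied through 1 mutant allele. The loss of TPST and any other difference of this line from Col-0 cannot be told apart in this design. Neither group received phytosulfokine (PSK) and their medium was not exchanged. The other 12 shoot libraries came from *tpst* plants that received PSK at 10 nM, either in fresh medium (30 min, 2 h or 5 h) or from germination over 11 days. They were used here to estimate the spread between replicates and, where stated, to give levels.

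TPST is a Golgi enzyme that adds sulfate to tyrosine residues of peptide hormone precursors. PSK, PSY peptides, root meristem growth factors and Casparian strip integrity factors all need this step for full activity, and *Arabidopsis* is known to have a single gene for it. The *tpst* mutant therefore lacks several active peptide hormones, not PSK alone. PSK is perceived by the receptor kinases PSKR1 and PSKR2, which act with the co-receptor BAK1, and it is known for promoting growth and for tuning immune responses in leaves.

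The 6 libraries held between 22409693 and 29081862 assigned reads. Of 32833 genes in the count table, 20811 passed the filter on low counts and were tested. At a fold of 2 or more and an adjusted p under 0.05, 907 genes were higher and 279 were lower in *tpst* shoots than in Col-0 shoots. These were 4.36% and 1.34% of the genes tested, and the genes higher in *tpst* outnumbered the lower ones 3.25 to 1. The median log2 fold change over all genes tested was -0.01. A change of 8-fold or more was reached by 106 of the higher genes and by 12 of the lower genes. The count of lower genes depended on single libraries: it was 153 without *tpst* replicate 1 and 171 without Col-0 replicate 3, against 408 without *tpst* replicate 3. In bulk tissue, fewer cells of a type and less RNA per cell cannot be told apart. Levels are given as CPM, counts scaled to the size of the library, which do not correct for gene length, and each fold change as log2 of *tpst* over Col-0 with its standard error.

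**Figure D1:**
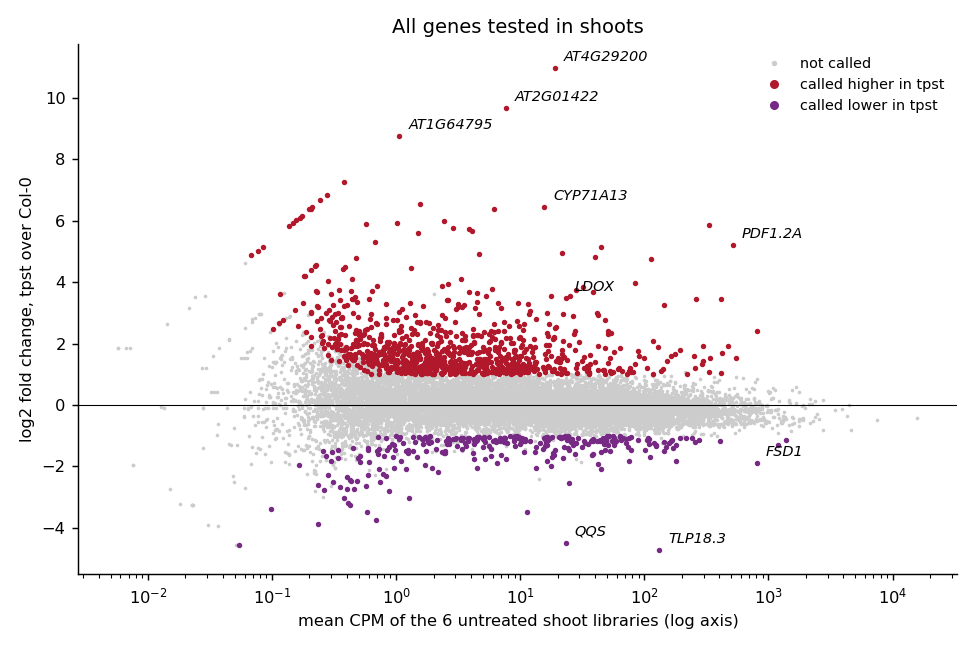
Log2 fold change of *tpst* over Col-0 (vertical axis) against mean CPM of the 6 untreated shoot libraries (horizontal log axis) for the 20811 genes tested in shoots; each point is a gene, and colour marks the 907 called higher and the 279 called lower in *tpst*. The 3 genes with almost no reads in Col-0 (AT4G29200, AT2G01422 and AT1G64795) stand at the top, and TLP18.3 and QQS are the lowest labelled genes.

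The shoot label was checked against markers. The 29 nuclear photosynthesis genes summed to 47597, 50434 and 50473 CPM in *tpst* shoots, against 67963, 68829 and 68595 CPM in Col-0 shoots, and to between 408 and 2769 CPM in the 6 untreated root libraries, whose levels here and below were scaled over all 36 libraries. The 15 root markers, which cover root hairs, endodermis and root cortex, summed to 1005, 922 and 865 CPM in *tpst* shoots, against 670.1, 576 and 662 CPM in Col-0 shoots, and to between 5405 and 9184 CPM in the root libraries. All 3 *tpst* sums of the root markers lay above all 3 Col-0 sums. Among the 12 root markers that passed the filter, 5 were called higher and 0 lower, against 4.36% and 1.34% of all genes (edgeR; an unadjusted p under 0.05 was found for 7, and the DESeq2 calls were 5 higher and 0 lower), with a median log2 fold change of 0.97. EXPA7, an expansin of root hair cells, had 2.24, 2.89 and 1.90 CPM in *tpst* shoots, against 0.410, 0.145 and 0.779 CPM in Col-0 shoots (log2 fold change 2.43 ± 0.48, adjusted p = 0.00135). MYB36, a regulator of endodermal differentiation, had 2.02, 1.53 and 1.07 CPM in *tpst* shoots, against 0.273, 0.363 and 0.642 CPM in Col-0 shoots (log2 fold change 1.84 ± 0.40, adjusted p = 0.00256). The endodermal markers CASP1 and CASP2 were not called, with a log2 fold change of -0.44 for CASP1. PYK10, the beta-glucosidase that makes up most of the summed level, had 973, 888 and 844 CPM in *tpst* shoots, against 656, 567 and 644 CPM in Col-0 shoots. The part of this difference in the results below was not tested. Seed storage genes summed to 0.473, 0.562 and 0.831 CPM in *tpst* shoots, against 1.05, 1.63 and 2.61 CPM in Col-0 shoots, and SESA1, the only one of 7 that passed the filter, was called lower.

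TPST (AT1G08030), the targeted gene, lies on the minus strand of chromosome 1 at positions 2489409 to 2493327 in TAIR10. It had 6.28, 5.18 and 5.19 CPM in *tpst* shoots, against 17.58, 14.98 and 15.1 CPM in Col-0 shoots, so the groups did not overlap and the mean *tpst* level was 2.86-fold lower (log2 fold change -1.52 ± 0.14, adjusted p = 1.55e-06). Reads were still counted at the locus in the mutant, and the count table does not show which part of the gene they came from. Levels in the 4 PSK-treated *tpst* groups averaged between 6.18 and 7.36 CPM. Within 500 kb on either side of TPST, 242 genes were tested, of which 6 were called higher and 2 lower, or 3.31% against 5.7% over all genes.

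Of 14 genes of PSK production and perception, 12 passed the filter, and TPST was the only member called, against 1.34% of all genes called lower. The precursor genes PSK2, PSK3, PSK4 and PSK5 had log2 fold changes of -0.64 ± 0.38, -0.16 ± 0.22, -0.06 ± 0.21 and 0.20 ± 0.20, all with an adjusted p of at least 0.245. PSK1 had 0.473, 0.643 and 0.312 CPM in *tpst* shoots, against 0.182, 0 and 0 CPM in Col-0 shoots, and PSK6 was at 0 in all *tpst* shoots, against 0, 0 and 0.183 CPM in Col-0 shoots; neither passed the filter. The receptor gene PSKR1 had 26.7, 31.7 and 32.8 CPM in *tpst* shoots, against 39.8, 36.1 and 48.6 CPM in Col-0 shoots, a difference that passed the adjusted p but not the fold minimum (log2 fold change -0.45 ± 0.11, adjusted p = 0.008). Its relative PSKR2 had 19.0, 15.7 and 17.38 CPM in *tpst* shoots, against 14.4, 13.4 and 12.6 CPM in Col-0 shoots, on the other side of zero (log2 fold change 0.37 ± 0.11, adjusted p = 0.0236). BAK1 had 59.7, 64.0 and 65.9 CPM in *tpst* shoots, against 79.96, 75.1 and 94.2 CPM in Col-0 shoots (log2 fold change -0.39 ± 0.10, adjusted p = 0.00821). The proton pumps AHA1 and AHA2, the cation channel CNGC17 and the subtilase SBT1.1, which processes a PSK precursor, had log2 fold changes between -0.23 and 0.27.

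Among 12 tested genes of the other sulfated peptides and their receptors, CIF1 was called higher and GSO1 lower. Over all genes the shares were 4.36% higher and 1.34% lower. CIF1 encodes a Casparian strip integrity factor, a peptide made in the root stele, and it had 1.33, 1.53 and 1.07 CPM in *tpst* shoots, against 0.0455, 0.0363 and 0.183 CPM in Col-0 shoots (log2 fold change 3.87 ± 0.50, adjusted p = 3.67e-05). GSO1, a receptor kinase that perceives this peptide, had 3.27, 1.81 and 1.59 CPM in *tpst* shoots, against 5.05, 4.90 and 4.08 CPM in Col-0 shoots (log2 fold change -1.08 ± 0.25, adjusted p = 0.00389). The GSO1 call was lost without *tpst* replicate 2 or *tpst* replicate 3. In untreated roots, CIF1 had 12.4 to 14.4 CPM in *tpst* and 6.35 to 9.81 CPM in Col-0. GSO1 had 19.0 to 27.6 CPM in *tpst* roots and 25.5 to 28.5 CPM in Col-0 roots. The root marker sums of the shoot libraries differed as given above, and the part of that difference was not tested. PSY1, the precursor of a further sulfated peptide, had 8.00, 11.97 and 12.3 CPM in *tpst* shoots, against 19.7, 16.8 and 16.7 CPM in Col-0 shoots (log2 fold change -0.72 ± 0.19), under the fold minimum.

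**Figure D2:**
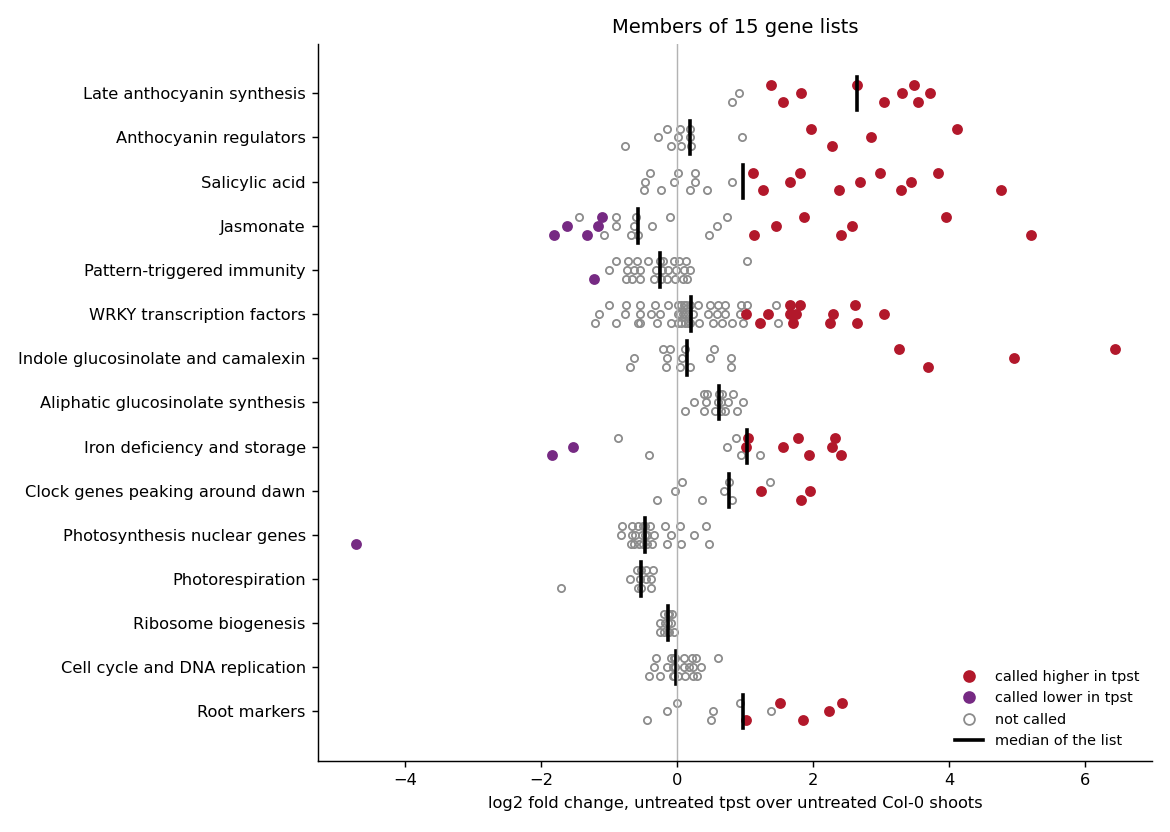
Log2 fold change of *tpst* over Col-0 (horizontal axis) for the tested members of 15 gene lists, 1 row a list; filled points were called, open points were not, and black bars are list medians. The late anthocyanin genes lie to the right with a median of 2.65, the jasmonate genes are split with 7 called higher and 5 lower, and the ribosome biogenesis and cell cycle genes sit near 0.

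Anthocyanins are vacuolar flavonoid pigments whose last steps are carried out by a small set of enzymes that are controlled together by complexes of MYB, bHLH and WD40 proteins. Of 11 late anthocyanin genes, all of which were tested, 9 were called higher in *tpst* and 0 lower (edgeR; an unadjusted p under 0.05 was found for 11, and the DESeq2 counts were the same), against 4.36% of all genes called higher. Their median log2 fold change was 2.65, and their summed level was 327, 274 and 304 CPM in *tpst* shoots, against 83.7, 84.1 and 79.7 CPM in Col-0 shoots. Each member had its 3 *tpst* values above its 3 Col-0 values, as did 19.8% of all genes tested. The remaining 2 members, BGLU10 and UGT78D2, had log2 fold changes of 0.91 ± 0.09 and 0.81 ± 0.10, just under the fold minimum.

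DFR, the reductase that opens the branch to anthocyanidins, had 56.1, 44.2 and 56.3 CPM in *tpst* shoots, against 3.14, 5.55 and 2.93 CPM in Col-0 shoots (log2 fold change 3.73 ± 0.20, adjusted p = 1.92e-09). LDOX, the dioxygenase of the following step, had 49.4, 37.9 and 40.6 CPM in *tpst* shoots, against 3.42, 4.50 and 3.44 CPM in Col-0 shoots (log2 fold change 3.48 ± 0.13, adjusted p = 4.02e-11). For both enzymes the lowest *tpst* library lay far above the highest Col-0 library. The glycosyltransferases UGT75C1 and UGT79B1, which decorate the pigment, followed. UGT75C1 had 22.1, 19.8 and 21.9 CPM in *tpst* shoots, against 2.91, 2.54 and 2.25 CPM in Col-0 shoots (log2 fold change 3.05 ± 0.14, adjusted p = 3.06e-10). UGT79B1 had 17.8, 16.0 and 18.9 CPM in *tpst* shoots, against 1.41, 2.21 and 1.60 CPM in Col-0 shoots (log2 fold change 3.31 ± 0.18, adjusted p = 1.92e-09). GSTF12, the glutathione transferase that carries the pigment toward the vacuole, had 30.2, 27.5 and 31.0 CPM in *tpst* shoots, against 4.96, 5.48 and 3.62 CPM in Col-0 shoots (log2 fold change 2.65 ± 0.17, adjusted p = 2.51e-08). The acyltransferase 5MAT had 11.1, 8.04 and 9.93 CPM in *tpst* shoots, against 1.14, 0.762 and 0.596 CPM in Col-0 shoots (log2 fold change 3.54 ± 0.25, adjusted p = 7.22e-08), and 3AT1, 3AT2 and SCPL10 had smaller log2 fold changes of 1.56, 1.38 and 1.82.

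Promoters were taken for LDOX, DFR, UGT75C1 and UGT79B1, and 2 of them, those of DFR and UGT79B1, are shown because they hold the letters CACGTG. Sequences are the 300 bases before the gene start in TAIR10.1, 5′ to 3′ on the strand of the gene, with capitals on the G-box CACGTG, a palindrome so that both strands read alike. The DFR window is chr5:17166033-17166332 and the UGT79B1 window chr5:21938397-21938696, both on the minus strand.
DFR: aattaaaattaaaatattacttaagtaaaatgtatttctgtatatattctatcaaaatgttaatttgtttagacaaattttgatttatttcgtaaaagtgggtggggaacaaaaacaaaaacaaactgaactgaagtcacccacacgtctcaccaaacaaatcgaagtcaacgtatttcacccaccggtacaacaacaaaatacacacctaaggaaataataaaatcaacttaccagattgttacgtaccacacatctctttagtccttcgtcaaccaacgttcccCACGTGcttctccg
UGT79B1: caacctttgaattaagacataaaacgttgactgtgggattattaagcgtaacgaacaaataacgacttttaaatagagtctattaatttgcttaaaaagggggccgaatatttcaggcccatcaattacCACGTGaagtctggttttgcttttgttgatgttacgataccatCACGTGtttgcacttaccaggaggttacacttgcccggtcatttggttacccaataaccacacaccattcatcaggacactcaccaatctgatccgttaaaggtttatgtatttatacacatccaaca
The letters CACGTG occurred in 3 of the 9 called genes of this list and in 7.82% of the 20733 tested genes with such a window. LDOX and UGT75C1 held no CACGTG in their windows, which are not printed. A match describes the letters only.

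Among the regulators of this branch, 4 of 15 tested members were called higher and 0 lower, against 4.36% and 1.34% of all genes (edgeR; an unadjusted p under 0.05 was found for 5, and the DESeq2 calls were 4 higher and 0 lower), and the called genes were the MYB and bHLH activators. TT8, a bHLH partner, had 6.71, 7.87 and 6.30 CPM in *tpst* shoots, against 1.27, 1.63 and 1.38 CPM in Col-0 shoots (log2 fold change 2.27 ± 0.19, adjusted p = 5.82e-07). PAP1 (MYB75) had 3.05, 2.05 and 2.11 CPM in *tpst* shoots, against 0.501, 0.508 and 0.825 CPM in Col-0 shoots (log2 fold change 1.98 ± 0.38, adjusted p = 0.00118), and PAP2 (MYB90) had 0.688, 0.683 and 0.554 CPM in *tpst* shoots, against 0.0911, 0.0726 and 0.0917 CPM in Col-0 shoots (log2 fold change 2.85 ± 0.47, adjusted p = 0.000326). MYB113 was read mainly in 1 library, with 1.94, 0.321 and 0.242 CPM in *tpst* shoots, against 0.0911, 0 and 0.0458 CPM in Col-0 shoots (log2 fold change 4.11 ± 1.15, adjusted p = 0.0139), and its call was lost without *tpst* replicate 1 or Col-0 replicate 2. The other bHLH partners GL3 and EGL3 and the WD40 protein TTG1 had log2 fold changes of -0.08, -0.28 and -0.16. The repressor MYBL2 had 1.94, 4.50 and 5.37 CPM in *tpst* shoots, against 8.15, 7.29 and 4.72 CPM in Col-0 shoots, and was not called. LBD37 had 98.4, 78.6 and 79.1 CPM in *tpst* shoots, against 54.5, 37.8 and 40.6 CPM in Col-0 shoots. It passed the adjusted p but not the fold minimum (edgeR, log2 fold change 0.948 ± 0.24, adjusted p = 0.0072).

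The early flavonoid genes, which feed flavonols as well as anthocyanins, were called higher in 1 of 15 cases and lower in 0. Over all genes the shares were 4.36% and 1.34%. F3'H, which hydroxylates the B ring, had 33.6, 30.9 and 35.8 CPM in *tpst* shoots, against 5.56, 5.80 and 5.82 CPM in Col-0 shoots (log2 fold change 2.54 ± 0.16, adjusted p = 1.37e-08). Chalcone synthase (CHS) had 427, 422 and 410 CPM in *tpst* shoots, against 293, 258 and 282 CPM in Col-0 shoots, a log2 fold change of 0.60 ± 0.10 that passed the adjusted p (0.000334) but not the fold minimum. Members with a positive log2 fold change numbered 14 of 15.

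**Figure D3:**
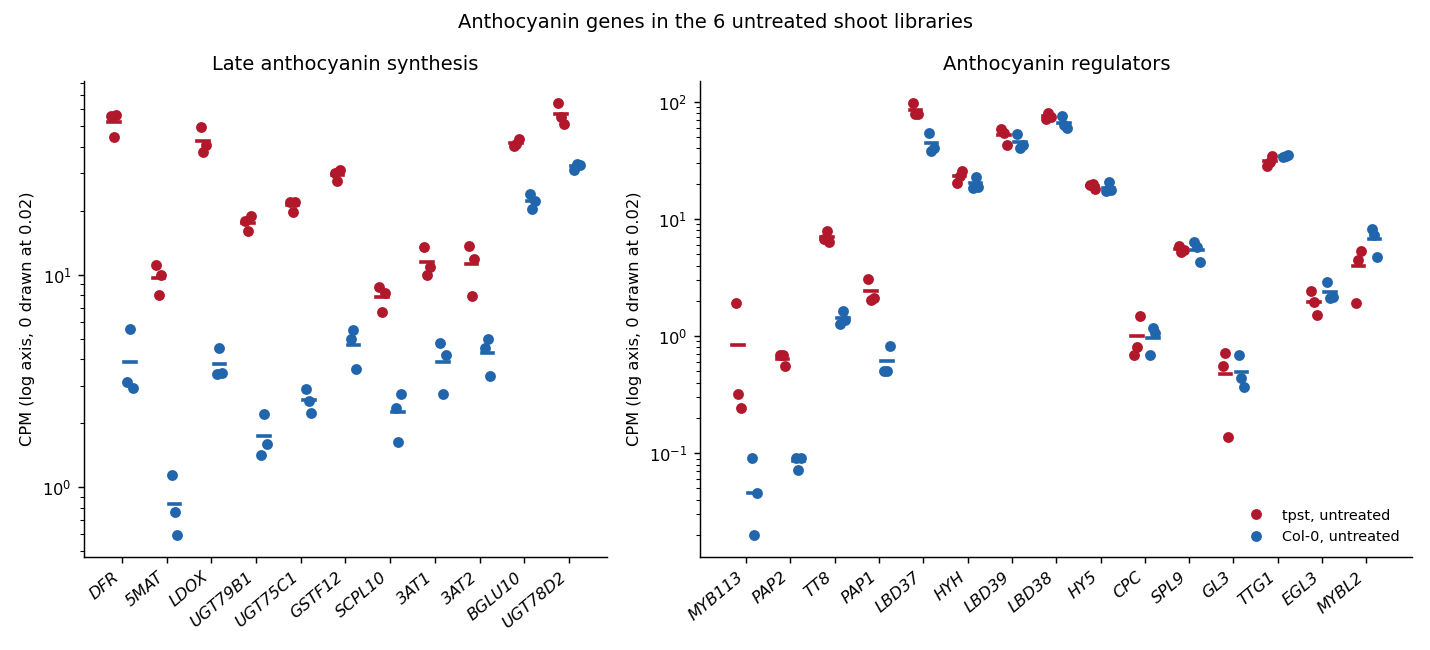
CPM (log axis) of the late anthocyanin genes (left) and their regulators (right) in each of the 6 untreated shoot libraries; points are libraries, bars are group means, *tpst* stands left of Col-0 for each gene and values of 0 are drawn at 0.02. The 11 late genes have no overlap between the groups, whereas among the regulators the separation is seen for MYB113, PAP2, TT8, PAP1 and LBD37.

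Salicylic acid is the hormone that drives defense against biotrophic pathogens and the systemic response, and PR1, PR2 and PR5 are its classical readouts. Of 22 tested genes of this pathway, 11 were called higher in *tpst* and 0 lower (edgeR; an unadjusted p under 0.05 was found for 16, and the DESeq2 calls were 11 higher and 0 lower), against 4.36% of all genes called higher. PR1 had 198, 114 and 337 CPM in *tpst* shoots, against 5.97, 4.90 and 13.3 CPM in Col-0 shoots (log2 fold change 4.76 ± 0.49, adjusted p = 4.69e-06). PR2, a beta-1,3-glucanase, had 55.9, 41.1 and 81.9 CPM in *tpst* shoots, against 3.78, 2.61 and 6.33 CPM in Col-0 shoots (log2 fold change 3.83 ± 0.36, adjusted p = 1.85e-06). The lowest *tpst* value of each was several times the highest Col-0 value, although the *tpst* libraries differed among themselves, replicate 3 being the highest. PR5 had 39.8, 51.0 and 59.4 CPM in *tpst* shoots, against 19.9, 21.8 and 20.8 CPM in Col-0 shoots (log2 fold change 1.26 ± 0.20, adjusted p = 0.000262).

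Enzymes and regulators of the pathway were among the 11. ICS1, the isochorismate synthase that makes most salicylic acid, had 19.9, 23.7 and 29.8 CPM in *tpst* shoots, against 10.3, 10.6 and 13.1 CPM in Col-0 shoots (log2 fold change 1.11 ± 0.20, adjusted p = 0.000511); its call was lost without *tpst* replicate 3. PBS3, which acts after it, had 8.86, 8.999 and 13.3 CPM in *tpst* shoots, against 1.68, 2.43 and 1.83 CPM in Col-0 shoots (log2 fold change 2.38 ± 0.19, adjusted p = 4.03e-07). FMO1, the monooxygenase that makes N-hydroxypipecolic acid, had 4.04, 5.54 and 7.72 CPM in *tpst* shoots, against 0.319, 0.689 and 0.733 CPM in Col-0 shoots (log2 fold change 3.29 ± 0.34, adjusted p = 5.05e-06). The glycosyltransferase UGT76B1 had 9.16, 10.4 and 19.0 CPM in *tpst* shoots, against 2.09, 1.67 and 2.25 CPM in Col-0 shoots (log2 fold change 2.70 ± 0.31, adjusted p = 1.55e-05). In untreated roots UGT76B1 had 72.9 to 100.6 CPM in *tpst* and 81.0 to 102 CPM in Col-0. The part of the root marker difference given above was not tested. Among upstream and receptor genes, EDS1, PAD4, SAG101, NPR1, NPR3 and NPR4 had log2 fold changes between -0.48 and 0.26, and none was called.

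Jasmonate responses are split into a wound branch, read through JAZ and VSP genes, and a branch shared with ethylene, read through ORA59 and the PDF1.2 defensins. Of 25 tested members, 7 were called higher and 5 lower by edgeR, and 7 higher and 4 lower by DESeq2, against 4.36% and 1.34% of all genes in edgeR, and the median log2 fold change was -0.58. The defensins were the extreme case. PDF1.2A had 983, 951 and 1079 CPM in *tpst* shoots, against 29.5, 19.1 and 33.3 CPM in Col-0 shoots (log2 fold change 5.21 ± 0.40, adjusted p = 2.6e-07), and PDF1.2B had 169.7, 160.3 and 144 CPM in *tpst* shoots, against 12.5, 8.13 and 10.0 CPM in Col-0 shoots (log2 fold change 3.96 ± 0.39, adjusted p = 2.97e-06). PDF1.2C, a neighbour of PDF1.2A on chromosome 5 that is not among the 25, had 688, 636 and 641 CPM in *tpst* shoots, against 12.4, 6.93 and 15.1 CPM in Col-0 shoots (log2 fold change 5.85 ± 0.50, adjusted p = 7.15e-07). The coding sequences of these defensins are close copies, so reads could be shared out between them by the counting, and the 3 genes are not independent observations. ORA59, the ERF factor that activates them, had 24.9, 14.0 and 11.1 CPM in *tpst* shoots, against 3.42, 2.79 and 2.15 CPM in Col-0 shoots (log2 fold change 2.58 ± 0.42, adjusted p = 0.000304).

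Their promoters are shown because the GCC box, a binding element of ERF factors, lies in this window in some of them. Capitals mark GCCGCC, searched on both strands; the windows are chr5:17907639-17907938 (PDF1.2A, minus strand), chr5:17909508-17909807 (PDF1.2C, minus strand) and chr2:11088823-11089122 (PDF1.2B, plus strand), each being the 300 bases before the gene start in TAIR10.1.
PDF1.2A: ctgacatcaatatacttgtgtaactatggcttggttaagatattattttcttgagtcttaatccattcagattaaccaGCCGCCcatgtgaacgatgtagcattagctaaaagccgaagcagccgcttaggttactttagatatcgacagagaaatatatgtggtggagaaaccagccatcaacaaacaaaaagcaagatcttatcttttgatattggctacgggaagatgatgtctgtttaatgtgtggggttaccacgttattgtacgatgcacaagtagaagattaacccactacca
PDF1.2C: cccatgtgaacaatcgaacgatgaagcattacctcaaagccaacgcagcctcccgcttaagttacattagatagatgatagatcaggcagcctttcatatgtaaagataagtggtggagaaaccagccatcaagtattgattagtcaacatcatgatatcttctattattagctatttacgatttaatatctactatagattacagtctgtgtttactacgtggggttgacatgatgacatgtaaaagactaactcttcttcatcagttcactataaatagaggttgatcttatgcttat
PDF1.2B: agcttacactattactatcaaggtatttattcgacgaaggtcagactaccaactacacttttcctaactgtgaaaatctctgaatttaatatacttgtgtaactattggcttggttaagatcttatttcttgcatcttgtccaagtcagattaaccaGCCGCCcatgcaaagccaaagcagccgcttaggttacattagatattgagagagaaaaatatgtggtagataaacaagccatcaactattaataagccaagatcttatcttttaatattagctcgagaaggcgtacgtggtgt
GCCGCC was found once in the PDF1.2A and PDF1.2B windows, 0 times in the PDF1.2C window, in 3 of the 7 jasmonate genes called higher, and in 2.41% of all windows. The PDF1.2C window opens with cccatgtgaac, and PDF1.2A reads GCCGCCcatgtgaac. Bases before the window were not searched, so the 0 holds for these 300 bases only.

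The wound branch went both ways. The repressor genes JAZ2, JAZ5, JAZ7 and JAZ10 and the lipoxygenase gene LOX3 were called lower. The JAZ5 call was not made by DESeq2 on the 18 libraries and was lost without any of 5 of the 6 libraries. JAZ10 had 7.91, 5.99 and 13.7 CPM in *tpst* shoots, against 22.7, 23.5 and 39.4 CPM in Col-0 shoots (log2 fold change -1.62 ± 0.41, adjusted p = 0.00722), and JAZ7 had 2.75, 5.83 and 13.1 CPM in *tpst* shoots, against 23.8, 22.3 and 30.8 CPM in Col-0 shoots (log2 fold change -1.81 ± 0.53, adjusted p = 0.0197). In both, *tpst* replicate 3 lay between the other *tpst* libraries and the Col-0 libraries. The number of lower calls in this list was 1 without *tpst* replicate 1, 1 without Col-0 replicate 3 and 2 without *tpst* replicate 2. CYP94C1, which inactivates jasmonoyl-isoleucine, had 6.32, 9.96 and 33.8 CPM in *tpst* shoots, against 61.2, 61.2 and 94.2 CPM in Col-0 shoots (log2 fold change -2.10 ± 0.57, adjusted p = 0.0124), and its call was lost without *tpst* replicate 1 or *tpst* replicate 2. On the other side, VSP1, VSP2, TAT3 and CORI3 were called higher, VSP2 at 1.13 ± 0.35 with a call that was lost without any of 4 of the 6 libraries. TAT3, a tyrosine aminotransferase, had 72.2, 53.9 and 102 CPM in *tpst* shoots, against 22.4, 15.8 and 24.7 CPM in Col-0 shoots (log2 fold change 1.87 ± 0.34, adjusted p = 0.000631), and CORI3, a cystine lyase, had 462, 372 and 468 CPM in *tpst* shoots, against 187, 163 and 127 CPM in Col-0 shoots (log2 fold change 1.45 ± 0.17, adjusted p = 1.85e-05). VSP1, a vegetative storage protein, had 13.8, 4.50 and 15.2 CPM in *tpst* shoots, against 1.78, 1.67 and 2.89 CPM in Col-0 shoots (log2 fold change 2.41 ± 0.53, adjusted p = 0.00289). NATA1, the acetyltransferase that makes N-delta-acetylornithine, had 141, 42.0 and 79.2 CPM in *tpst* shoots, against 2.73, 3.37 and 1.19 CPM in Col-0 shoots (log2 fold change 5.14 ± 0.76, adjusted p = 0.00012).

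Camalexin is the indole phytoalexin of *Arabidopsis*, made from tryptophan through CYP71A13 and PAD3. Of 18 tested genes of indole glucosinolates and camalexin, 4 were called higher and 0 lower, against 4.36% and 1.34% of all genes (edgeR; an unadjusted p under 0.05 was found for 9, and the DESeq2 calls were 4 higher and 0 lower). CYP71A13 had 33.6, 20.7 and 38.4 CPM in *tpst* shoots, against 0.683, 0.181 and 0.229 CPM in Col-0 shoots (log2 fold change 6.44 ± 0.59, adjusted p = 1.55e-06). CYP71A12, its close relative, had 43.0, 35.1 and 48.3 CPM in *tpst* shoots, against 0.729, 1.41 and 1.93 CPM in Col-0 shoots (log2 fold change 4.95 ± 0.29, adjusted p = 6.69e-09), and PAD3 (CYP71B15) had 76.7, 53.6 and 84.0 CPM in *tpst* shoots, against 4.69, 5.08 and 6.83 CPM in Col-0 shoots (log2 fold change 3.69 ± 0.31, adjusted p = 5.82e-07). The 2 CYP71A genes resemble each other in sequence, and CYP71A13 overlaps IMA3 on the opposite strand, so part of their reads may be uncertain. MYB122 was low, with 0.860, 0.723 and 0.588 CPM in *tpst* shoots, against 0.182, 0.0363 and 0 CPM in Col-0 shoots (log2 fold change 3.27 ± 1.03, adjusted p = 0.0271), and its call was lost without any of 4 of the 6 libraries. The indole glucosinolate enzymes CYP79B2, CYP79B3 and CYP83B1 had log2 fold changes of 0.79, -0.10 and 0.18. None of 17 tested aliphatic glucosinolate genes was called by edgeR or by DESeq2, although 15 had an unadjusted p under 0.05 and all 17 log2 fold changes were positive, from 0.11 to 0.97 with a median of 0.61.

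Pattern-triggered immunity, the response to conserved microbial molecules such as flagellin, was read through 30 tested genes. Of these, 0 were called higher and 1 lower, or 3.33% lower against 1.34% of all genes (4.36% of all genes were higher). In the list 8 had an unadjusted p under 0.05, and the median log2 fold change was -0.25; DESeq2 gave the same counts. PEPR1, a receptor for endogenous danger peptides, had 29.9, 35.8 and 62.8 CPM in *tpst* shoots, against 84.7, 87.7 and 129.5 CPM in Col-0 shoots (log2 fold change -1.23 ± 0.26, adjusted p = 0.00227), a call that was lost without Col-0 replicate 3. The flagellin receptor FLS2, the kinase BIK1, MPK3 and RBOHD had log2 fold changes of -0.31, -0.67, -0.59 and -0.26, and none was called. The summed level of the list was 1642, 2162 and 3083 CPM in *tpst* shoots, against 3014, 2977 and 3336 CPM in Col-0 shoots, so *tpst* replicate 3 lay within the range of the Col-0 libraries and the other *tpst* libraries below it. Without *tpst* replicate 3, 5 members were called lower.

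WRKY proteins are transcription factors that bind the W-box and act on both sides of immune regulation. Of 72 WRKY genes listed, 62 passed the filter, 13 were called higher and 0 lower (edgeR; an unadjusted p under 0.05 was found for 33, and the DESeq2 calls were 13 higher and 0 lower), against 4.36% and 1.34% of all genes. With a stricter filter on low counts, 8 were called higher. The calls of WRKY31 and WRKY58 were lost without any of 4 of the 6 libraries, and that of WRKY36 without any of 3. WRKY38 lost its call without *tpst* replicate 3 or Col-0 replicate 2, and WRKY35 without *tpst* replicate 1. The called genes differed in their root levels. WRKY9 had 1.33, 1.04 and 1.18 CPM in *tpst* shoots and 10.3 to 22.5 CPM in the untreated roots. WRKY36, WRKY38 and WRKY14 had 37.2 to 55.3, 16.8 to 32.9 and 16.2 to 27.5 CPM in those roots, above every untreated shoot library. WRKY71 had 2.92, 4.74 and 4.05 CPM in *tpst* shoots and 0.986 to 1.84 CPM in those roots. WRKY58 and WRKY8 had at most 0.825 CPM there. The root marker sums of the shoot libraries differed as given above, and the part of that difference was not tested. WRKY54 had 9.20, 9.92 and 15.6 CPM in *tpst* shoots, against 3.73, 2.65 and 3.62 CPM in Col-0 shoots (log2 fold change 1.81 ± 0.22, adjusted p = 2.36e-05). WRKY51 had 3.31, 3.05 and 4.88 CPM in *tpst* shoots, against 1.00, 0.363 and 0.504 CPM in Col-0 shoots (log2 fold change 2.61 ± 0.39, adjusted p = 0.000126), and WRKY75 had 8.47, 6.59 and 8.79 CPM in *tpst* shoots, against 1.37, 1.96 and 1.65 CPM in Col-0 shoots (log2 fold change 2.25 ± 0.34, adjusted p = 0.000131). WRKY8 had 2.41, 0.884 and 2.32 CPM in *tpst* shoots, against 0.182, 0.254 and 0.229 CPM in Col-0 shoots (log2 fold change 3.04 ± 0.58, adjusted p = 0.000938). The groups did not overlap in any of these 4 genes, which were picked for the smallest p. Of the 62 genes, 21 had all *tpst* values above all Col-0 values and 6 had them below. Over all genes tested these shares were 19.8% and 22.6%.

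Of the 62 tested WRKY genes, 16 had negative fold changes, a few abundant ones among them. The summed WRKY level was 1103, 1419 and 1911 CPM in *tpst* shoots, against 1665, 1738 and 1943 CPM in Col-0 shoots. WRKY33 had 131, 212 and 346 CPM in *tpst* shoots, against 329, 321 and 353 CPM in Col-0 shoots (log2 fold change -0.54 ± 0.35). WRKY40 had 53.6, 70.4 and 129 CPM in *tpst* shoots, against 138, 149 and 188 CPM in Col-0 shoots (log2 fold change -0.91 ± 0.33). WRKY18, a partner of WRKY40, had 80.4, 131 and 196 CPM in *tpst* shoots, against 223, 274 and 317 CPM in Col-0 shoots (log2 fold change -0.996 ± 0.31). None of these was called, and 5 WRKY genes were called lower when *tpst* replicate 3 was left out. Of 8 defense genes named in the study for their response to PSK, FOX5 was called higher and MLO12 lower. Over all genes the shares were 4.36% higher and 1.34% lower. FOX5, a berberine bridge enzyme-like oxidase, had 7.22, 8.72 and 14.5 CPM in *tpst* shoots, against 4.51, 3.88 and 5.09 CPM in Col-0 shoots (log2 fold change 1.18 ± 0.24, adjusted p = 0.00143), a call lost without *tpst* replicate 3. MLO12, a member of the powdery mildew susceptibility family, had 3.18, 6.91 and 11.0 CPM in *tpst* shoots, against 23.3, 20.4 and 40.7 CPM in Col-0 shoots (log2 fold change -1.99 ± 0.35, adjusted p = 0.000544). WRKY22 had 18.1, 23.7 and 33.5 CPM in *tpst* shoots, against 44.8, 43.1 and 39.7 CPM in Col-0 shoots (log2 fold change -0.76 ± 0.21, adjusted p = 0.0134), under the fold minimum. FOX1, PCR8, IOS1, WRKY72 and PME41 had log2 fold changes between -0.43 and 0.55, with an adjusted p of at least 0.249.

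**Figure D4:**
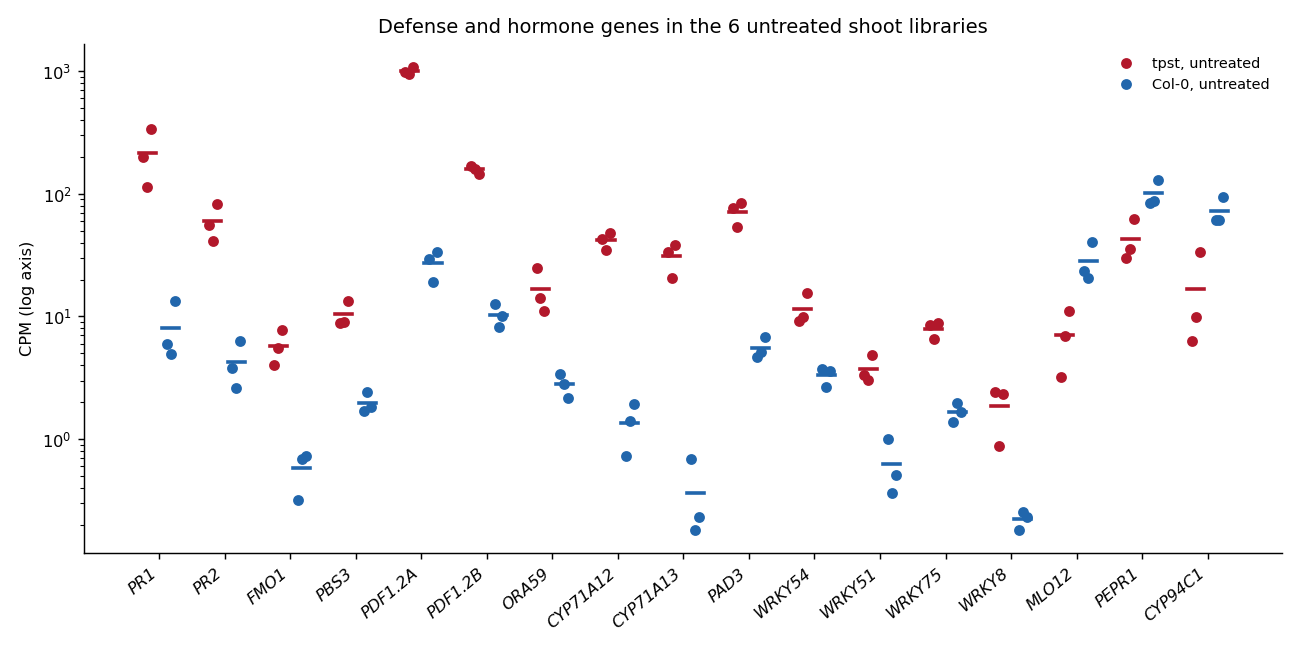
CPM (log axis) of 17 defense and hormone genes in each of the 6 untreated shoot libraries; points are libraries and bars are group means, with *tpst* left of Col-0 for each gene. The salicylic acid, defensin, camalexin and WRKY genes shown lie above Col-0 in all 3 *tpst* libraries, while MLO12, PEPR1 and CYP94C1 lie below it with *tpst* replicate 3 nearest to Col-0.

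Iron is taken up and distributed under the control of a set of bHLH factors and IMA peptides that are induced when iron is short, whereas ferritins store iron and fall when it is short. In this list 8 of 16 tested genes were called higher and 2 lower, against 4.36% and 1.34% of all genes. The peptide genes IMA1, IMA2 and IMA3 had log2 fold changes of 1.94 ± 0.27, 1.78 ± 0.26 and 1.56 ± 0.25. IMA1 had 33.2, 36.96 and 48.0 CPM in *tpst* shoots, against 10.3, 9.72 and 10.7 CPM in Col-0 shoots. The factors BHLH38 and BHLH39 had log2 fold changes of 2.28 ± 0.50 and 2.32 ± 0.40. NAS4, a nicotianamine synthase, had 45.6, 43.8 and 50.9 CPM in *tpst* shoots, against 9.47, 8.13 and 8.89 CPM in Col-0 shoots (log2 fold change 2.41 ± 0.20, adjusted p = 7.04e-07). OPT3, a phloem iron transporter, had 538, 546 and 594 CPM in *tpst* shoots, against 298, 255 and 261 CPM in Col-0 shoots (log2 fold change 1.04 ± 0.11, adjusted p = 7.32e-06), a call lost without *tpst* replicate 3. The ferritin genes FER1 and FER4 were the lower pair. FER1 had 33.9, 35.5 and 30.3 CPM in *tpst* shoots, against 102, 102 and 152 CPM in Col-0 shoots (log2 fold change -1.83 ± 0.23, adjusted p = 2.73e-05), and FER4 had 20.3, 25.7 and 23.3 CPM in *tpst* shoots, against 66.6, 70.1 and 64.6 CPM in Col-0 shoots (log2 fold change -1.54 ± 0.20, adjusted p = 4.48e-05). FER3 had 96.7, 103 and 101 CPM in *tpst* shoots, against 173, 181 and 197 CPM in Col-0 shoots, under the fold minimum at -0.88 ± 0.11.

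A pair of genes outside this list encode further iron proteins. Both were named for their low fold changes among protein-coding genes with at least 5 CPM and no overlap between the groups. FSD1, the plastid iron superoxide dismutase, had 399, 340.3 and 296 CPM in *tpst* shoots, against 1065, 1494 and 1266 CPM in Col-0 shoots (log2 fold change -1.89 ± 0.20, adjusted p = 5.55e-06). NEET, an iron-sulfur protein of chloroplasts and mitochondria, had 2.19, 2.33 and 1.11 CPM in *tpst* shoots, against 19.9, 24.2 and 17.8 CPM in Col-0 shoots (log2 fold change -3.47 ± 0.45, adjusted p = 3.74e-05). In *tpst* shoots that had received PSK for 11 days, FSD1 averaged 1617 ± 279.5 CPM (SD, n = 3), which lay above the untreated *tpst* libraries. FER1 averaged 31.9 ± 3.87 CPM in that group (SD, n = 3). After 30 min, 2 h and 5 h of PSK in fresh medium, FER1 averaged 34.4 ± 11.3, 317 ± 28.4 and 506 ± 148 CPM. FSD1 averaged 554 ± 65.0, 570 ± 94.5 and 836 ± 252 CPM in those groups (SD, n = 3 each). These levels were not tested, and the time of day of harvest is not given in the sources used here.

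Most photosynthesis genes had negative fold changes under the fold minimum. Of 28 tested genes, 1 was called lower and 0 higher (edgeR; an unadjusted p under 0.05 was found for 21, and the DESeq2 counts were the same), with a median log2 fold change of -0.47, and 23 members were negative. Over all genes, 1.34% were called lower and 4.36% higher. RBCS1A, a small subunit of Rubisco, had a log2 fold change of -0.44 ± 0.10. The 12 photorespiration genes were all negative, with a median of -0.53, and none was called by edgeR or by DESeq2, although 11 had an unadjusted p under 0.05. PGLP1, at -1.71 the lowest of them, was read at less than 1 CPM in all 6 libraries.

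The called member stood far from the rest. TLP18.3 (AT1G54780), a thylakoid protein needed for the repair of photosystem II, lies on chromosome 1 at positions 20439383 to 20441159. It had 10.9, 9.92 and 8.00 CPM in *tpst* shoots, against 253, 246 and 259 CPM in Col-0 shoots, 26.3-fold lower (log2 fold change -4.72 ± 0.22, adjusted p = 3.06e-10). In the 4 PSK-treated *tpst* groups it averaged between 9.72 and 12.6 CPM. In roots it had 0.624, 0.894 and 1.197 CPM in *tpst*, against 3.498, 5.27 and 4.16 CPM in Col-0. All *tpst* shoot groups, with PSK or without, lay below Col-0 shoots, and untreated *tpst* roots lay below untreated Col-0 roots. The gene overlaps AT1G54790 and AT1G07993, both annotated on the other strand.

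QQS (AT3G30720), an orphan gene that affects starch and protein content and is known for heritable variation in its expression, had 2.32, 1.81 and 1.80 CPM in *tpst* shoots, against 42.9, 49.0 and 41.4 CPM in Col-0 shoots (log2 fold change -4.50 ± 0.48, adjusted p = 6.14e-06). In roots it had 0.0347, 0.172 and 0.0971 CPM in *tpst*, against 36.1, 32.3 and 24.4 CPM in Col-0.

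A further 7 genes were read in *tpst* shoots at a mean of at least 1 CPM and at under 0.1 CPM in each Col-0 shoot library, and no gene met the reverse condition. AT4G29200, on chromosome 4 at 14398054 to 14400198, had 865, 972 and 1084 counts in *tpst* shoots, against 1, 0 and 0 counts in Col-0 shoots, a ratio of 2705 with a 95% exact counting interval of 485 to 106890.0. AT2G01422, a non-coding RNA gene on chromosome 2 at 183940 to 184734, had 375, 344 and 462 counts in *tpst* shoots, against 1, 0 and 0 counts in Col-0 shoots, a ratio of 1094 with an interval of 196 to 43239. AT1G64795, on chromosome 1 at 24082579 to 24082848, had 41, 44 and 82 counts in *tpst* shoots, against 0 counts in each Col-0 library, and was at least 50.5-fold higher when Col-0 was set at 3 counts over the group. These intervals cover counting error only.

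These 3 genes kept the same split in the roots. AT4G29200 had between 941 and 1234 counts in *tpst* roots, against 0 in each Col-0 root library. AT2G01422 had between 535 and 613 counts in *tpst* roots, against 0 to 3 in Col-0 roots, and AT1G64795 had between 95 and 103 counts in *tpst* roots, against 0 to 1 in Col-0 roots. The other 4 genes were also read in Col-0 roots. AT5G52390 had 11 to 29 counts there, AT3G05950 had 143 to 164, AT3G61930 had 34 to 107 and GSTU3 had 8 to 18. In all 12 PSK-treated *tpst* shoot libraries each of the 7 genes was above 0.1 CPM. The lowest of those libraries had 33.9 CPM of AT4G29200 and 0.138 CPM of AT3G05950.

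**Figure D5:**
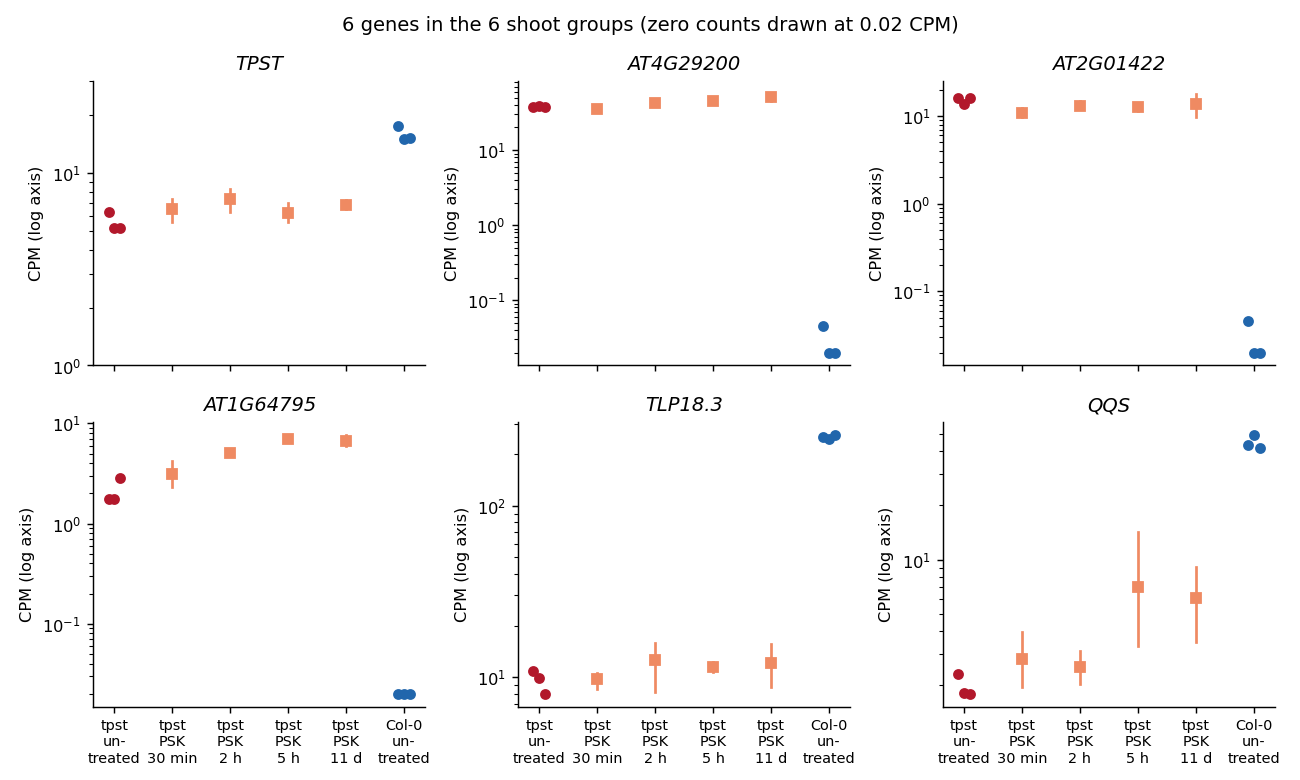
CPM (log axes) of 6 genes in untreated *tpst* shoots, in *tpst* shoots given PSK for 30 min, 2 h, 5 h or 11 days, and in untreated Col-0 shoots; circles are single libraries, squares are means of 3 libraries with bars from the lowest to the highest, and counts of 0 are drawn at 0.02. In the PSK-treated groups AT4G29200, AT2G01422, AT1G64795 and TLP18.3 stay on the side of untreated *tpst*, far from the Col-0 libraries.

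Of 16 sugar and carbon starvation genes, 5 were called higher and 1 lower, against 4.36% and 1.34% of all genes. APL3, a subunit of the starch enzyme ADP-glucose pyrophosphorylase, had 68.6, 58.7 and 63.3 CPM in *tpst* shoots, against 30.1, 28.2 and 28.5 CPM in Col-0 shoots (log2 fold change 1.13 ± 0.078, adjusted p = 5.01e-08). GPT2, the plastid glucose-6-phosphate translocator, had 158, 124 and 127 CPM in *tpst* shoots, against 45.3, 40.9 and 35.0 CPM in Col-0 shoots (log2 fold change 1.75 ± 0.34, adjusted p = 0.00104), and BAM5, an amylase of the phloem, had 401, 270.0 and 229 CPM in *tpst* shoots, against 103, 98.7 and 61.2 CPM in Col-0 shoots (log2 fold change 1.78 ± 0.31, adjusted p = 0.000443). DIN2, a beta-glucosidase induced by darkness, had 3.31, 3.21 and 2.39 CPM in *tpst* shoots, against 0, 0.109 and 0.0458 CPM in Col-0 shoots (log2 fold change 5.61 ± 0.57, adjusted p = 4.27e-06). DIN10 was called lower at -1.17 ± 0.35, a call lost without *tpst* replicate 1, Col-0 replicate 1 or Col-0 replicate 2. Among 12 tested nitrate genes, the transporter genes NRT2.1 and NPF7.3 were called higher, against 4.36% of all genes, and the NPF7.3 call was lost without Col-0 replicate 2. NRT2.1, a high-affinity transporter known mainly from roots, had 6.58, 7.91 and 4.53 CPM in *tpst* shoots, against 0.455, 0.472 and 1.1 CPM in Col-0 shoots (log2 fold change 3.24 ± 0.41, adjusted p = 3.22e-05). In untreated roots NRT2.1 had 118, 135 and 118 CPM in *tpst*, against 3.31, 5.74 and 4.60 CPM in Col-0. It lies on chromosome 1 at positions 2524023 to 2526322, and is 1 of the 6 genes called higher within 500 kb of TPST. NPF7.3 had 318 to 370 CPM in *tpst* roots and 311 to 419 CPM in Col-0 roots. The root marker sums of the shoot libraries differed as given above, and the part of that difference was not tested. In the sulfur list, LSU2 and SULTR1;1 were called of 21 genes, both higher, or 9.52% against 4.36% of all genes. The SULTR1;1 call was lost without any of 4 of the 6 libraries. LSU2 had 21.5, 23.0 and 25.8 CPM in *tpst* shoots, against 11.2, 9.69 and 9.21 CPM in Col-0 shoots (log2 fold change 1.22 ± 0.31, adjusted p = 0.00821).

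Of 11 genes that peak around dawn, 3 were called higher and 0 lower (edgeR; an unadjusted p under 0.05 was found for 7, and the DESeq2 calls were 3 higher and 0 lower), and of 11 that peak around dusk, 1 was called lower. Over all genes the shares were 4.36% higher and 1.34% lower. LHY, a MYB factor of the morning loop, had 26.4, 25.8 and 28.4 CPM in *tpst* shoots, against 6.92, 6.53 and 7.29 CPM in Col-0 shoots (log2 fold change 1.96 ± 0.11, adjusted p = 3.89e-09), and its partner CCA1 had 10.5, 8.72 and 11.6 CPM in *tpst* shoots, against 3.23, 2.18 and 3.35 CPM in Col-0 shoots (log2 fold change 1.83 ± 0.23, adjusted p = 2.48e-05). RVE8 had 12.2, 11.7 and 11.7 CPM in *tpst* shoots, against 5.65, 5.41 and 4.13 CPM in Col-0 shoots (log2 fold change 1.23 ± 0.12, adjusted p = 2.1e-06). BOA, an evening factor, had 5.63, 6.63 and 7.68 CPM in *tpst* shoots, against 13.4, 14.1 and 14.4 CPM in Col-0 shoots (log2 fold change -1.07 ± 0.12, adjusted p = 1.58e-05), a call lost without *tpst* replicate 1. In *tpst* shoots with PSK for 11 days LHY averaged 268 ± 4.40 CPM (SD, n = 3). The time of day of harvest is not given in the sources used here, and genotype and time of day cannot be told apart in these values.

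None of 14 expansins, 24 cell cycle and DNA replication genes, 13 ribosome biogenesis genes, 17 phosphate starvation genes, 12 heat shock genes or 10 flowering genes was called by edgeR or by DESeq2; 5, 8, 4, 8, 0 and 1 of them had an unadjusted p under 0.05. The cell cycle genes ranged from -0.41 to 0.60 on the log2 scale with a median of -0.01, and the ribosome biogenesis genes from -0.26 to -0.05. Beside the counts of this paragraph, 4.36% of all genes tested were called higher and 1.34% lower. Of 14 xyloglucan endotransglucosylases, XTH18 was called lower, with 26.9, 44.8 and 90.6 CPM in *tpst* shoots, against 122, 142 and 181 CPM in Col-0 shoots (log2 fold change -1.45 ± 0.44, adjusted p = 0.0213). The call was lost without *tpst* replicate 1, *tpst* replicate 2 or Col-0 replicate 3, and 4 members were called lower without *tpst* replicate 3. In the auxin list, IAA19 was the only one of 21 genes called, with 0.860, 1.21 and 1.80 CPM in *tpst* shoots, against 3.55, 3.66 and 3.71 CPM in Col-0 shoots (log2 fold change -1.48 ± 0.41, adjusted p = 0.013), and the call was lost without *tpst* replicate 1. Of 16 tested cytokinin genes, 2 were called higher and 0 lower. CYP735A2, which makes trans-zeatin forms of cytokinin, had 3.35, 2.77 and 3.15 CPM in *tpst* shoots, against 0.865, 1.63 and 1.19 CPM in Col-0 shoots (log2 fold change 1.31 ± 0.25, adjusted p = 0.000937). In untreated roots CYP735A2 had 24.6 to 28.3 CPM in *tpst* and 30.6 to 52.5 CPM in Col-0. The other, ARR3, was called at 1.915 ± 0.67, a call lost without any of 4 of the 6 libraries. In the ethylene list, 1 of 18 tested genes was called higher and 1 lower. ACO1, which carries out the last step of ethylene synthesis, had 42.3, 38.2 and 47.4 CPM in *tpst* shoots, against 12.6, 12.7 and 11.6 CPM in Col-0 shoots (log2 fold change 1.79 ± 0.16, adjusted p = 8.2e-07). In untreated roots ACO1 had 213 to 295 CPM in *tpst* and 89.5 to 124 CPM in Col-0. The part of the root marker difference given above was not tested for CYP735A2 or ACO1. ACS7, of the step before, was called lower at -1.18 ± 0.37. DESeq2 on the 18 libraries did not make that call, and it was lost without any of 5 of the 6 libraries.

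Other genes stood out by size or by p. PER52, a class III peroxidase, had 15.4, 6.71 and 14.4 CPM in *tpst* shoots, against 0.410, 0 and 0.0458 CPM in Col-0 shoots (log2 fold change 6.38 ± 0.71, adjusted p = 9.79e-06). SAG13, a dehydrogenase gene used as a senescence marker, had 93.5, 50.1 and 88.1 CPM in *tpst* shoots, against 3.78, 1.71 and 2.80 CPM in Col-0 shoots (log2 fold change 4.83 ± 0.42, adjusted p = 8.2e-07). TRX8, an h-type thioredoxin, had 32.6, 40.1 and 44.5 CPM in *tpst* shoots, against 5.01, 5.30 and 4.81 CPM in Col-0 shoots (log2 fold change 2.95 ± 0.14, adjusted p = 3.06e-10). SUS4, a sucrose synthase of the hypoxia list, had 24.7, 25.2 and 32.4 CPM in *tpst* shoots, against 4.55, 5.62 and 7.33 CPM in Col-0 shoots (log2 fold change 2.23 ± 0.25, adjusted p = 1.01e-05). In untreated roots SUS4 had 608, 461 and 340 CPM in *tpst*, against 245, 177 and 156 CPM in Col-0. The root marker sums of the shoot libraries differed as given above, and the part of that difference was not tested. SUS4 was the only one of 15 members called, against 4.36% of all genes called higher. Of 21 tested genes of abscisic acid, cold and drought, 2 were called higher and 1 lower, against 4.36% and 1.34% of all genes. COR15A, a chloroplast cryoprotective protein, had 19.1, 18.4 and 20.7 CPM in *tpst* shoots, against 7.56, 6.28 and 8.39 CPM in Col-0 shoots (log2 fold change 1.40 ± 0.20, adjusted p = 7.51e-05), and the dehydrin gene RAB18 was called higher at 1.82 ± 0.42. HAI1, a protein phosphatase gene of the pathway, was called lower at -1.28 ± 0.32, a call lost without Col-0 replicate 3, and COR47 and ERD10 had log2 fold changes of -0.575 and -0.668, under the fold minimum. On the lower side, AT1G51820, a leucine-rich repeat kinase, had 3.40, 4.82 and 13.3 CPM in *tpst* shoots, against 30.9, 42.4 and 54.5 CPM in Col-0 shoots (log2 fold change -2.55 ± 0.40, adjusted p = 0.000189). AT2G36690, an oxygenase of the 2-oxoglutarate family, had 9.07, 16.4 and 27.1 CPM in *tpst* shoots, against 70.1, 60.9 and 71.0 CPM in Col-0 shoots (log2 fold change -1.93 ± 0.37, adjusted p = 0.0011). TZF5, a zinc finger protein, had 1.94, 3.33 and 3.01 CPM in *tpst* shoots, against 12.8, 10.2 and 7.61 CPM in Col-0 shoots (log2 fold change -1.88 ± 0.33, adjusted p = 0.000569), and AT1G15010 had 4.99, 3.66 and 6.96 CPM in *tpst* shoots, against 18.26, 20.5 and 26.0 CPM in Col-0 shoots (log2 fold change -2.05 ± 0.39, adjusted p = 0.000983). The smallest p among lower genes after TLP18.3 belonged to AT4G25170, AT5G11330, AT5G02160 and AT5G24490, with log2 fold changes of -1.07 ± 0.08, -1.59 ± 0.13, -1.29 ± 0.11 and -1.15 ± 0.10. AT4G25170 lost its call without Col-0 replicate 2.

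Levels in *tpst* shoots that grew with PSK for 11 days are given without a test. The late anthocyanin genes summed to 544 ± 5.25 CPM (SD, n = 3) after 11 days of PSK, against 302 ± 26.6 CPM in untreated *tpst* shoots and 82.5 ± 2.45 CPM in Col-0. DFR averaged 96.2 ± 6.81 CPM there. PR1 averaged 56.2 ± 26.6 CPM after 11 days of PSK, between the untreated *tpst* libraries and the Col-0 libraries. PDF1.2A averaged 338 ± 122 CPM, CYP71A12 7.23 ± 1.55 CPM and PAD3 49.2 ± 12.7 CPM in the same group (SD, n = 3 each), all above every Col-0 value. No test was run on these levels, since the comparison with PSK shares its untreated *tpst* libraries with the one described here. Genes that peak around dawn summed to 853 CPM after 11 days of PSK, against 200 CPM in untreated *tpst* shoots. Those that peak around dusk summed to 1947 against 4337 CPM, and the hypoxia list to 10131 against 2137 CPM. The time of day of harvest is not given, so PSK and time of day cannot be told apart in these levels.

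Whether the change differed between shoots and roots was tested with an interaction term. Of 22303 genes tested, 1510 had a *tpst* over Col-0 change that differed between the tissues by at least 1 on the log2 scale. The change was higher in shoots for 915 genes (4.1%) and lower in shoots for 595 genes (2.67%). AT1G55880, on chromosome 1 at 20898793 to 20901247, had 57.8, 56.0 and 51.5 CPM in *tpst* shoots, against 13.3, 14.5 and 12.2 CPM in Col-0 shoots (log2 fold change 2.04 ± 0.12), and 21.7, 17.3 and 17.8 CPM in *tpst* roots, against 17.43, 19.1 and 19.8 CPM in Col-0 roots. GSTU24, a glutathione transferase, was higher in *tpst* shoots and lower in *tpst* roots, with all 36 libraries scaled together. It had 12.6, 13.2 and 17.8 CPM in *tpst* shoots, against 5.14, 4.31 and 6.06 CPM in Col-0 shoots (log2 fold change 1.505 ± 0.21), and 12.4, 12.7 and 10.5 CPM in *tpst* roots, against 37.4, 38.5 and 42.3 CPM in Col-0 roots.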

How the data were processed

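Poly(A) RNA of 36 shoot and root libraries was sequenced in pairs. The authors aligned reads to TAIR10 with HISAT2 2.0.5 and deposited raw counts per gene made with featureCounts 1.5.0-p3. The submitters' processing notes also name fastp, without its role. The strand setting and the handling of reads that map more than once are not given in the sources used here. The deposited FPKM values and gene descriptions were not used as measurements. Symbols were matched to RefSeq TAIR10.1 by locus ID for 32548 of 32833 genes, and promoter sequences come from that assembly.

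Genes were kept by the edgeR filter with a minimum count of 10. The 18 shoot libraries in 6 groups were fitted with edgeR 4.0.16 (R 4.3.3), TMM scaling and the quasi-likelihood F test, without a replicate block. A call needed a fold of 2 and a Benjamini-Hochberg adjusted p under 0.05 over all genes tested. The tissue difference was an interaction term over the 36 libraries. CPM used the same scaling. On simulated counts for 20811 genes of this comparison, 192 of 200 genes changed 3-fold were recovered, with 3 false calls. The changed genes were drawn above a floor on the mean count, so recovery at a fold of 2 or at low counts was not measured. Replicates of a group differed by more than counting noise, so none was counted as a duplicate.

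Alternatives were DESeq2 1.42.0, other scaling, other filters, the 6 libraries alone, a replicate block and leaving out each library. Named genes were all PSK pathway genes, the 10 most changed protein-coding genes in each direction with at least 5 CPM and no overlap, the 5 with the smallest p in each direction, up to 4 called members a list, the 8 defense genes named in the study, genes read in 1 genotype, and the 5 strongest tissue differences. Other genes named were chosen after their values were seen. The comparison and all lists were chosen with earlier results of these data known.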

Additional observations from a re-analysis of the deposited data

Results flagged for a closer look

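The change of *tpst* over Col-0 differed between shoots and roots by an interaction test (edgeR, adjusted over 22303 genes) for 1510 genes. The 5 with the smallest p among genes with at least 5 CPM are given as shoot change minus root change on the log2 scale. AT5G61820, a stress-induced Nod19-like gene, differed by 2.36 ± 0.17, with 0.43 in shoots and -1.93 in roots. AT1G55880 differed by 2.03 ± 0.16, with 2.04 in shoots and 0.02 in roots. AT1G52820, a 2-oxoglutarate dependent oxygenase gene, differed by 4.07 ± 0.34, with -0.54 in shoots and -4.61 in roots. GSTU24 differed by 3.24 ± 0.28, with 1.505 in shoots and -1.73 in roots. UMAMIT14, an amino acid exporter, differed by -3.73 ± 0.34, with -0.14 in shoots and 3.59 in roots.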

How the results depend on the processing

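The count of genes higher in *tpst* ranged from 683 with a stricter filter to 955 with DESeq2 on 18 libraries, and from 724 to 965 when 1 library was left out. The count of lower genes ranged from 153 to 408 when 1 library was left out and was 198 with the stricter filter. Without a fold minimum the counts were 2461 higher and 2713 lower. The count for the tissue difference was 1158 to 1560 when 1 library was left out and 3958 without a minimum on the difference. Of 89 named genes that were called, 72 kept the call in all 14 alternatives and 17 lost it when 1 library was left out, and 0 results of named genes turned direction. The median log2 fold change of all genes was -0.01 with either scaling, and no alternative moved it by more than 0.032. With a replicate block the counts were 936 higher, 340 lower and 1336 for the tissue difference. Deviations of same-numbered libraries from their group means correlated at 0.313, 0.032 and 0.349 for numbers 1, 2 and 3. *tpst* replicate 1 with Col-0 replicate 3 gave -0.311, and *tpst* replicate 3 with Col-0 replicate 1 gave -0.339. Each library correlated best with its own number except *tpst* replicate 2, at 0.0654 with Col-0 replicate 1. The labels name no shared batch and 1 pair is near 0, so the numbers were not taken to pair the libraries. The depth limits statements on genes at a few counts, such as MYB113 and WRKY8.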
